A study of Mus musculus with 10 samples.

Results

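The Zfp genes of mouse chromosome 7 are the protein-coding genes whose symbols are Zfp followed by a number. They were picked by symbol and chromosome, a rule set with earlier results of these data known. Of the 20665 autosomal protein-coding genes, 90 met the rule. A further 270 Zfp genes lie on the other autosomes. DNA methylation was measured in whole mouse embryos at embryonic day 7.5, 5 labelled arsenic and 5 labelled control, by reduced representation bisulfite sequencing (RRBS), which reads cytosines of CpG-rich restriction fragments. Arsenic dose, exposure time, mouse strain and embryo sex are not stated in the labels. Each embryo mixes cell types, and whether extraembryonic tissue was taken along is not stated either. The count columns carry only library numbers, so no library could be tied to arsenic or control, and no comparison of arsenic with control embryos was made. The 10 libraries are therefore described together, as pooled levels with the range over libraries.

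Most Zfp genes encode proteins with tandem C2H2 zinc fingers that bind DNA, and chromosome 7 holds large clusters of them. In many, a KRAB domain recruits the co-repressor TRIM28 and the histone methyltransferase SETDB1, and these proteins silence retrotransposons and maintain imprints in the early embryo. The fingers are usually encoded in a long last exon, while the promoter is usually CpG-rich. The symbol does not fix the protein class. Zfp36 encodes tristetraprolin, an RNA-binding protein with CCCH fingers that speeds decay of AU-rich mRNAs.

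Levels were taken at 4 places. The 5′ end and the 3′ end are the 1000 bp on each side of the outermost ends of the gene in RefSeq on mm10 coordinates. The body is the span more than 1000 bp from both ends. The 3′ stretch is the last 5000 bp of the span, outside the 5′ end. It overlaps the body and the inner side of the 3′ end, and is not an exon call. A place counted as measured with at least 3 cytosines, each read at least 10 times in every library, and its level is the mean over cytosines of the methylated share of reads. Strand was known for 82 of the 90 genes. Of these, 56 were measured at the 5′ end, 24 at the 3′ end, 65 in the body and 52 in the 3′ stretch. Zfp626 had no cytosine in any place. Zfp114, Zfp446, Zfp524, Zfp568, Zfp574, Zfp575, Zfp646 and Zfp865 had no strand and are given by left and right end. Summed coverage was 94583116 to 127102232 per library and median coverage per cytosine 30 to 42 reads. Wilson 95% intervals given with a value cover counting error only and understate the error, because neighbouring CpGs share reads.

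Promoter sequences of 5 genes show the starts on which the results below turn. Each is 300 bp on the gene's strand from RefSeq (GRCm38.p6), 250 bp before to 50 bp after a start site, with CpGs in capitals. Zfp566 had the lowest 5′ end (chr7:30090461-30090760, minus strand, 14 CpGs). Zfp61 (chr7:24299500-24299799, minus strand, 14 CpGs) and Zfp771 (chr7:127244276-127244575, plus strand, 25 CpGs) have starts inside the annotated gene. Zfp27 has a start at its gene end with 1 CpG (chr7:29906483-29906782, minus strand) and a start further in with 13 CpGs (chr7:29906055-29906354, minus strand). Zfp977 (chr7:42592496-42592795, minus strand, 6 CpGs) was the exception among measured promoters.
Zfp566: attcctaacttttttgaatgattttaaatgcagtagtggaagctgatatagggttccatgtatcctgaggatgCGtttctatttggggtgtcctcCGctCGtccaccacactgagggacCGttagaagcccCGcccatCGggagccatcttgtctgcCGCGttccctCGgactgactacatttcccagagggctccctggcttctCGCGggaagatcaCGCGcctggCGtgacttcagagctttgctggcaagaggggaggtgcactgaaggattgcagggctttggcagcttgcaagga
Zfp61: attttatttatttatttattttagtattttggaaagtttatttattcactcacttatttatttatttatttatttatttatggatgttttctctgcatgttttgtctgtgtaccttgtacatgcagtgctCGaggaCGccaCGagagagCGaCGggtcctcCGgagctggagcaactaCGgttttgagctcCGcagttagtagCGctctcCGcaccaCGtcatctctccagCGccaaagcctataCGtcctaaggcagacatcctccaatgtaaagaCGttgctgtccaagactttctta
Zfp771: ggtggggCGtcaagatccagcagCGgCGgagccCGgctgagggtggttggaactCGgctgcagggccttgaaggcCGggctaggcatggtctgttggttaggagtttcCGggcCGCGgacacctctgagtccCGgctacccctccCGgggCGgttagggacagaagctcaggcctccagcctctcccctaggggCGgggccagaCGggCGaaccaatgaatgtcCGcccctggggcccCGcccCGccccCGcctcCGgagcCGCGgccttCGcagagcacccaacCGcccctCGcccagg
Zfp27 at the gene end: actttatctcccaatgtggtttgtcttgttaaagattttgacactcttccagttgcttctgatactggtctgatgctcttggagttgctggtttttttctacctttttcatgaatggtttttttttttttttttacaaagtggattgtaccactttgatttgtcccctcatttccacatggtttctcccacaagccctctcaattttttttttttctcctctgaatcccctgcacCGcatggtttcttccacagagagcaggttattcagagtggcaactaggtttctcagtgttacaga
Zfp27 inside the gene: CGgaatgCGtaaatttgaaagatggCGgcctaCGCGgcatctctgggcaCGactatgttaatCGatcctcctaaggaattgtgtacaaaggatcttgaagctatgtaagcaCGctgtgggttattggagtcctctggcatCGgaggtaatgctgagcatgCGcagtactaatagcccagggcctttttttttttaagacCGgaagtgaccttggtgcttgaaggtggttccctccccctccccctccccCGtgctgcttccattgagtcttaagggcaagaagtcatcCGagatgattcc
Zfp977: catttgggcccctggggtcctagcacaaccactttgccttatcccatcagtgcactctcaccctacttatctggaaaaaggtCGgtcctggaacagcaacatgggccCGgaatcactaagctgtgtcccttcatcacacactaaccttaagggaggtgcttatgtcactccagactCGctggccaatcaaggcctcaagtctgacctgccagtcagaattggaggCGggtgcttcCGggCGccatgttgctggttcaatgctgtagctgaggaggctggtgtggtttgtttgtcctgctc

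The 5′ ends of the Zfp genes were mostly unmethylated, and their bodies and 3′ stretches mostly methylated. The median pooled level was 3.10% at 56 5′ ends, with library medians of 2.36% to 3.99%. This median depended on the window, and was 1.31% within 500 bp, 5.11% within 2000 bp and 1.62% with a coverage of at least 20 in every library. The median was 71.8% in 52 3′ stretches (library medians 69.5% to 75.1%), 69.9% at 24 3′ ends (66.5% to 72.7%) and 64.1% in 65 bodies (62.2% to 68.0%). Among the 5′ ends, 37 were under 5% (66.1%, against 64.9% of all autosomal protein-coding genes) and 45 under 20% (80.4%, against 83.2%). These 5′ shares are near those of all genes. Among the 3′ stretches, 43 were over 50% (82.7%, against 74.9% of all genes) and 19 over 80%. The gap between the 5′ ends and the other places far exceeded the spread of the library medians.

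All autosomal protein-coding genes showed the same shape. Their median was 2.35% at 10453 5′ ends, 64.8% in 7277 3′ stretches, 60.7% at 4167 3′ ends and 58.1% in 11147 bodies. Levels over 80% were reached in 36.5% of the chromosome 7 Zfp 3′ stretches and in 15.7% of those of all genes. In bodies the share over 80% was 21.5% for these Zfp genes and 8.25% for all genes. Zfp genes on the other autosomes had medians of 1.85% at 155 5′ ends and 71.8% in 78 3′ stretches, with 25.6% of the stretches and 20.3% of the bodies over 80%. These differences were not tested.

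**Figure D1:**
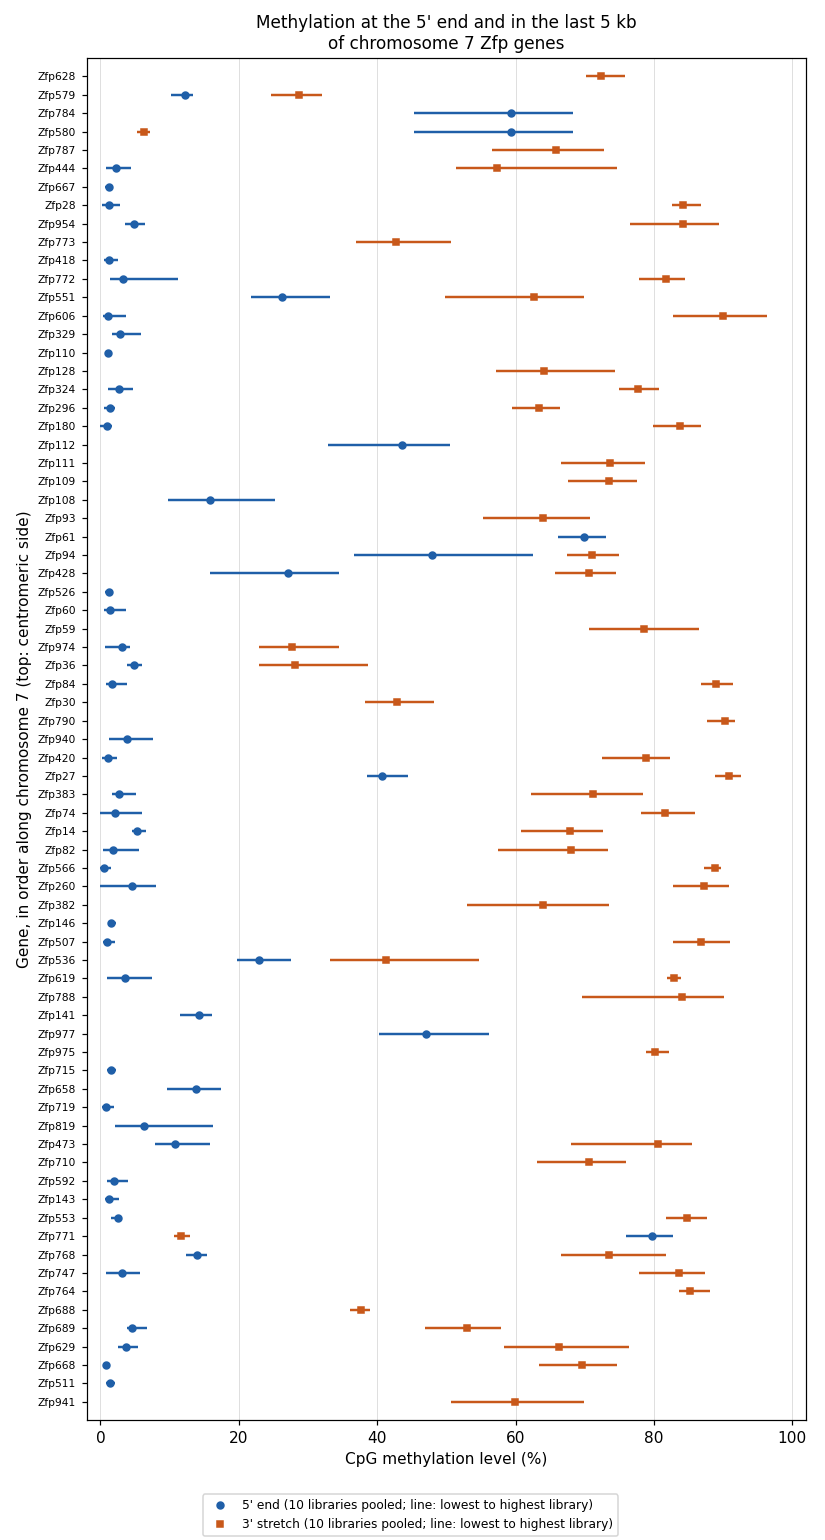
Pooled methylation level (%) at the 5′ end (circles) and in the 3′ stretch (squares) of each Zfp gene measured at either, in order along chromosome 7, with lines from the lowest to the highest of 10 libraries. Most circles lie under 20% (45 of 56) and most squares over 50% (43 of 52), with Zfp771 and Zfp580 the other way round. Over all autosomal protein-coding genes these shares are 83.2% and 74.9%. The 3′ stretch of Zfp580 holds its own RefSeq start site.

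In 33 of the 35 genes measured at both places (94.3%), the highest library at the 5′ end lay below the lowest library in the 3′ stretch. Over all autosomal protein-coding genes 86.4% met this rule (4893 of 5662). The 5′ end lay wholly below the body in 36 of 41 Zfp genes (87.8%), against 86.8% of all genes, and wholly below the 3′ end in 14 of 18 (77.8%), against 79.0% of all genes. These shares are near those of all genes, so they are no result about the Zfp genes in particular. The 5′ end lay wholly above the 3′ stretch in Zfp771 and in Zfp580, whose 3′ stretch holds its own RefSeq start site. Against the body it lay above in Zfp61, Zfp428, Zfp771 and Zfp580 and overlapped in Zfp112, and against the 3′ end it lay above in Zfp771 and Zfp580 and overlapped in Zfp36 and Zfp94. The median difference, 5′ end minus 3′ stretch, was -68.5 percentage points in the Zfp genes and -59.4 points in all genes. In the Zfp genes on the other autosomes it was -62.5 points, and 57 of 60 (95%) had the 5′ end wholly below the 3′ stretch. The 94.3% is thus not particular to chromosome 7.

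The widest gaps were seen in 8 genes, Zfp606, Zfp566, Zfp84, Zfp507, Zfp28, Zfp180, Zfp260 and Zfp553, from -89.0 points in Zfp606 to -82.2 points in Zfp553. Zfp566 (chromosome 7, 30077337 to 30090510) was at 0.519% at its 5′ end over 24 cytosines and 5315 reads, with libraries from 0% to 1.53% around a median of 0.347% (Wilson interval of the read share 0.365% to 0.760%). All 24 cytosines were under 20%. In its 3′ stretch the lowest, median and highest library were 87.3%, 88.9% and 89.6%, and 52 of 56 cytosines were over 80%. No library of Zfp566 came near the other place.

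Zfp180 (24081877 to 24107709) had libraries from 0% to 1.64% with a median of 0.835% at its 5′ end, and from 79.9% to 86.8% with a median of 83.8% over 70 cytosines of its 3′ stretch. Zfp260, a partner of GATA4 in cardiac gene activation, was at 4.49% over 4 cytosines at its 5′ end (0% to 8.03%) and at 87.3% over 8 cytosines of its 3′ stretch (82.8% to 90.9%). The few cytosines leave the 5′ level of Zfp260 less precise than that of Zfp180. Zfp606 was at 1.05% at its 5′ end (0.349% to 3.63%, 48 cytosines) and 90.0% in its 3′ stretch (82.7% to 96.4%, 4 cytosines).

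Other low 5′ ends belonged to genes of differing roles. Zfp110 encodes NRIF, which binds a neurotrophin receptor, and was at 1.03% (0.720% to 1.44%) over 65 cytosines. Zfp143, an activator of small nuclear RNA and mRNA genes, was at 1.28% (0.622% to 2.67%, 77 cytosines). Zfp296, expressed in pluripotent cells, was at 1.37% (0.560% to 2.11%, 37 cytosines). Zfp719 was at 0.867% (0.198% to 1.92%) and Zfp507 at 0.871% (0.382% to 2.11%). In each of these 5 genes every library was under 5%.

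Zfp668 and the left end of Zfp646 share their cytosines, since the gene ends lie 78 bp apart. These 134 cytosines with 67407 reads were at 0.799%, with libraries from 0.577% to 1.04%. The bodies on either side were at 84.5% in Zfp668 (81.8% to 86.4%) and 83.4% in Zfp646 (81.9% to 84.8%). A stretch unmethylated in every library thus stood between methylated bodies. Zfp592 likewise had 2.02% at its 5′ end (0.985% to 4.00%) and 78.0% in its body (74.6% to 80.9%). Zfp146, which consists almost wholly of fingers, had 1.55% at its 5′ end (1.07% to 2.22%) and 91.3% at its 3′ end over 3 cytosines (86.1% to 95.8%).

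Zfp568 encodes a KRAB zinc finger protein needed for gastrulation, which silences a placental transcript of Igf2. Its left end was at 2.49% over 39 cytosines (lowest, median and highest library 1.65%, 2.41% and 3.41%), and the 30 cytosines in the 1000 bp inside that end were at 0.230% (0% to 0.575%). Its body was at 83.9% over 66 cytosines (82.3%, 83.8% and 86.9%), and its last 5000 bp on the right at 85.6%. Body tiles of 1000 bp lay between 79.0% and 86.1%. The unmethylated left end and the methylated remainder did not overlap in any library.

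At the other extreme, 11 of the 56 5′ ends were at 20% or more, while 80.4% were under 20%, against 83.2% of all genes. Zfp771 (127242996 to 127254872) was highest, at 79.7% over 16 cytosines, with libraries at 75.9%, 79.8% and 82.8% (lowest, median, highest). Zfp61 (24291045 to 24303840) was at 69.8% over 33 cytosines (66.1%, 70.4% and 73.0%), and these 33 cytosines lie inside the span of Zfp94, among the 45 of its 3′ stretch. Zfp784 and Zfp580, whose ends lie 73 bp apart, shared 5 cytosines at 59.4% (45.3%, 57.8% and 68.3%). The others were Zfp94, Zfp977, Zfp112, Zfp27, Zfp428, Zfp551 and Zfp536, from 48.0% in Zfp94 (36.6% to 62.5%, 5 cytosines) to 22.9% in Zfp536. A further 8 lay between 5% and 20%, from Zfp14 at 5.30% to Zfp108 at 15.8%. The widest ranges over libraries at 5′ ends, those of Zfp94, Zfp580, Zfp784, Zfp428 and Zfp112, all rested on 4 or 5 cytosines.

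In 17 genes the nearest RefSeq start site lay more than 1000 bp inside the outermost gene end, and 12 of them were measured at that start. Of the 12, 11 were under 5% there. At RefSeq start sites in general, 63.6% of all genes and 73.1% of the Zfp genes on the other autosomes were under 5%. For 5 of the 12 genes both positions were measured. Zfp771, with its start 1530 bp inside, was at 0.880% over 11 cytosines at the start (libraries 0% to 2.84%), against 79.7% at the outermost end. Zfp61, with its start 4291 bp inside, was at 1.14% over 79 cytosines (0.561% to 2.77%), against 69.8%. Its printed promoter held 28 measured cytosines at 0.791%, and that of Zfp771 held 9 at 1.08%. For both genes the libraries at the start and at the outermost end did not overlap.

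Zfp580, with its start 13013 bp inside, was at 1.26% at the start (0.564% to 2.17%), against 59.4% at the outermost end. Zfp428, with its start 2539 bp inside, was at 1.497% (0.958% to 2.20%), against 27.1% (15.8% to 34.5%). Zfp536, a repressor of neuronal differentiation with a start 4287 bp inside, was at 3.25% (2.10% to 4.09%), against 22.9% (19.7% to 27.5%). All 5 genes were thus low at the start and higher at the outermost end in every library. Starts measured with no counterpart at the gene end were Zfp787 at 0.927%, Zfp59 at 1.22%, Zfp93 at 1.89%, Zfp583 at 1.97%, Zfp790 at 2.74%, Zfp688 at 2.86% and Zfp109 at 20.4% (9.61% to 33.6%).

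**Figure D2:**
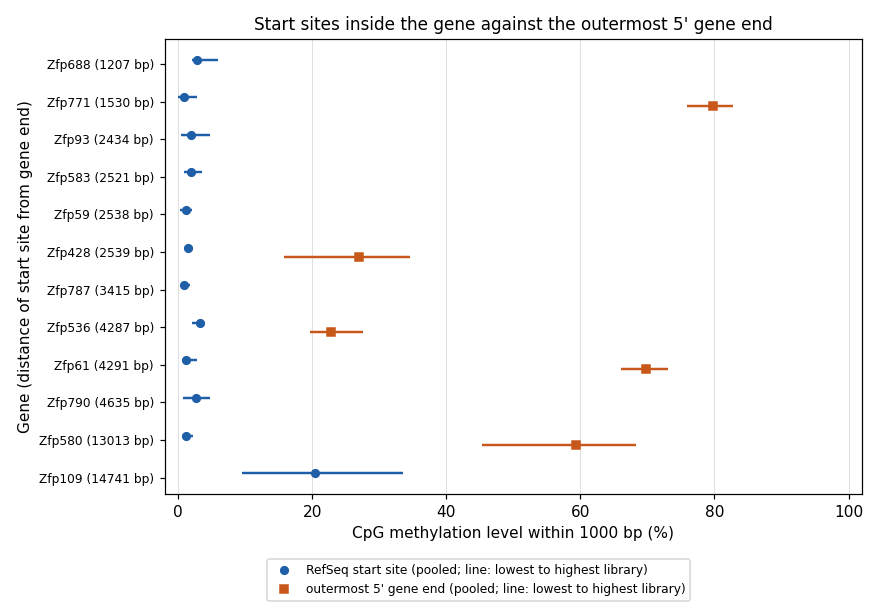
Methylation level (%) within 1000 bp of the RefSeq start site (circles) and of the outermost 5′ gene end (squares) in the 12 Zfp genes whose start lies more than 1000 bp inside the gene; lines run from the lowest to the highest of 10 libraries. Zfp109 is the only start over 5% (20.4%), while the 5 measured gene ends lie between 22.9% and 79.7%.

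Placing the 5′ end at the RefSeq start site was a choice made after seeing the data. It gave a median of 2.36% over 62 Zfp genes, against 2.50% over 11014 genes. The Zfp median was thus above that of all genes by the outermost end and below it by the start site. Of the 62, 55 were under 20% (88.7%), against 83.7% of all genes and 90.4% of the Zfp genes on the other autosomes. The start lay wholly below the 3′ stretch in all 41 Zfp genes measured at both, against 87.2% of all genes. It lay wholly below the body in 47 of 48 (97.9%), against 89.6% of all genes, and wholly below the 3′ end in 18 of 21 (85.7%), against 79.2%. In the Zfp genes of the other autosomes these shares were 97.1% for the 3′ stretch, 97.3% for the body and 91.7% for the 3′ end. They are thus not particular to chromosome 7. By the start site, Zfp771 and Zfp580 lay wholly below their 3′ stretches. Both, with Zfp61 and Zfp428, lay wholly below their bodies, the reverse of the outermost end. The body by start site still holds the span between the outermost end and the start. Body tiles in that span were at 75.3% and 18.3% in Zfp61, and at 59.7% and 64.5% in Zfp580. In Zfp61 and Zfp580 the start was thus compared largely with DNA before it. The exception in the body was Zfp112, at 43.6% at its 5′ end (32.9% to 50.5%) and 50.4% in its body (45.3% to 53.9%). The exceptions at the 3′ end were Zfp36, Zfp94 and Zfp771, whose library ranges at the start and at the 3′ end overlapped. Zfp580 and Zfp771 had the narrowest gaps to the 3′ stretch, -6.88 and -10.7 points.

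The 300 bp promoters held a median of 14.5 CpGs, with a range of 1 to 42 over 92 promoters of 82 Zfp genes, against a median of 14 over 20085 promoters of all genes. The RRBS cutting motif CCGG, which reads the same on both strands, was in 65 of the 92 (70.7%), against 63.5% of all promoters. Of 40 Zfp promoters measured, 35 (87.5%) were under 5%, against 82.6% of all measured promoters, and the medians were 1.18% and 1.22%. Each start counts as a promoter, so these are not independent, and the 2 of Zfp143 hold the same 11 cytosines. The exception over 20% was Zfp977, whose 6 measured cytosines were at 47.0% (lowest, median and highest library 40.3%, 46.3% and 56.2%) and each between 33.1% and 60.3%. All 6 were intermediate in the pooled reads.

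Promoters were also grouped by the number of CpGs in their 300 bp, with levels taken from the 1000 bp on each side of the start. Starts of the same gene can share cytosines here, as do the 3 of Zfp473. Those with under 10 CpGs had a median within 1000 bp of 5.19% in 10 Zfp promoters, 7 of them under 20%, against 39.1% in 2711 promoters of all genes, of which 35.1% were under 20%. With 10 to 19 CpGs the medians were 1.89% in 39 Zfp promoters and 2.91% in all genes, and with 20 or more they were 3.06% in 20 Zfp promoters and 1.51% in all genes. The 10 Zfp promoters with under 10 CpGs are few, and no difference was tested. Within their 300 bp, only Zfp977 (47.0%) and a start of Zfp629 (6.92%) were measured. The levels of the others rest on cytosines outside the promoter, as in Zfp583 (3 CpGs, 44 cytosines) and Zfp418 (2 CpGs, 18 cytosines). They are thus no levels of the CpG-poor promoters themselves. Zfp27 has a start in each of the lower classes. The 10 cytosines in the 1000 bp outside its gene end, beyond the 1-CpG start, were at 56.0% (53.6% to 61.1%), and the 4 in the 1000 bp inside it, around the 13-CpG start, at 2.30% (0% to 5.56%).

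By distance from the start site, the Zfp genes had medians of 1.38% in the 500 bp upstream (35 genes) and 1.17% in the 500 bp downstream (48 genes), against 1.41% and 1.26% for all genes. From 500 to 1000 bp downstream the median was 8.59% (24 genes), against 3.62%, and from 1000 to 2000 bp it was 60.9% (17 genes), against 29.8%. Beyond 500 bp downstream the Zfp medians thus lay above those of all genes, a difference that was not tested. Toward the 3′ end the medians were 82.9% from 5000 to 4000 bp before it (7 genes), 79.2% from 3000 to 2000 bp before it (20 genes) and 71.5% in the last 1000 bp (21 genes), against 63.3%, 65.6% and 62.8%. In the 1000 bp after the 3′ end the Zfp median was 31.5% over 10 genes with quartiles of 5.45% and 70.9%, against 58.0%.

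**Figure D3:**
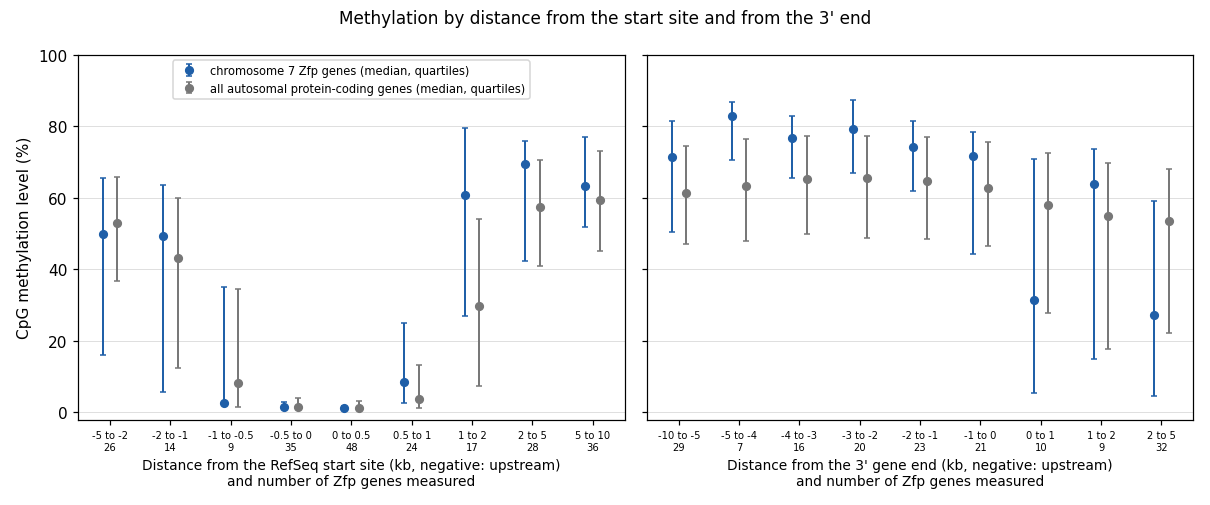
Median methylation level (%) with quartiles by distance (kb) from the RefSeq start site (left) and from the 3′ gene end (right), for chromosome 7 Zfp genes (left of each pair) and all autosomal protein-coding genes (right of each pair). The bins differ in the genes they hold; from 1 to 2 kb after the start the medians are 60.9% and 29.8%.

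The most methylated 3′ stretches were those of Zfp27 at 90.8%, Zfp790 at 90.3%, Zfp606 at 90.0%, Zfp84 at 88.9% and Zfp566 at 88.9%. In Zfp27 the lowest, median and highest library were 88.8%, 90.9% and 92.6%, and 64 of 66 cytosines were over 80%. Zfp790 was at 2.74% at its start and 90.4% over 25 cytosines in the 1000 bp tile that begins 17000 bp from its gene end. Zfp473, which acts in histone pre-mRNA processing, was at 10.8% at its 5′ end (7.90% to 15.9%) and 80.6% in its 3′ stretch (68.1% to 85.5%, 6 cytosines), with 47.6% over its whole body. At the 3′ end itself Zfp146, Zfp27 at 90.4%, Zfp566 at 87.2%, Zfp507 at 84.4% and Zfp954 at 84.2% were highest.

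Low 3′ stretches were seen in Zfp580 at 6.26%, Zfp771 at 11.6%, Zfp974 at 27.7% (3 cytosines), Zfp36 at 28.1% and Zfp579 at 28.7%. The 3′ stretch of Zfp580 holds its own start, with 15 cytosines at 1.26%, and was at 8.14% with the start left out. In Zfp36 the tile from 2000 bp, which spans its 3′ end, was at 4.84% over 43 cytosines. In Zfp771 the tile from 7000 bp inside the gene end was at 70.2% (60.3% to 77.7%), the tile from 10000 bp at 22.3% (20.4% to 23.6%) and the tile from 11000 bp, with 130 cytosines, at 0.806% (0.555% to 2.03%). Its 3′ end was the lowest of the 24, at 0.872% over 143 cytosines (0.579% to 1.92%). An unmethylated start and an unmethylated 3′ end thus stood on either side of a methylated tile. Zfp580 was at 1.26%, 4.86% and 8.98% in the 3 tiles from its inner start on. Of the 49 cytosines at its 3′ end (7.07%, 5.88% to 7.86%), 37 also lie near the 5′ end of Ccdc106, 119 bp away. Zfp579 was at 12.2% at its 5′ end (10.2% to 13.3%) and reached only 28.7% in its 3′ stretch (24.7% to 32.0%, 77 cytosines).

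Zfp36 (28376784 to 28379228), the tristetraprolin gene, was unmethylated at both ends, at 4.78% over 63 cytosines at its 5′ end (3.85%, 4.71% and 5.998%) and 3.46% over 76 cytosines at its 3′ end (2.72%, 3.55% and 5.38%). The ranges of the ends overlapped. Zfp78 had a 3′ end at 1.196% over 28 cytosines (0.146% to 2.89%), and these are the cytosines of the 5′ end of Zfp28, 600 bp away. Zfp628, needed for spermatid development, was at 77.4% in its body and 31.2% at its 3′ end (29.3% to 33.1%), where the tile from 6000 bp was at 50.3% and the tile from 7000 bp at 9.97%. Zfp30 was at 71.7% in the tile from 6000 bp and at 24.8% and 21.2% in its last 2 tiles, and its 5′ end was not measured. The widest library ranges at 3′ ends were in Zfp420 (49.3% to 78.9%, 5 cytosines), Zfp579 (27.2% to 49.2%), Zfp536 (37.3% to 57.9%), Zfp710 (63.8% to 81.0%) and Zfp787 (57.7% to 72.4%).

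Bodies were lowest in Zfp428 at 2.32% (1.59% to 3.10%), Zfp235 at 9.18%, Zfp61 at 12.2%, Zfp688 at 14.3% and Zfp580 at 22.0%. In Zfp61, Zfp428, Zfp688 and Zfp580 the body as placed from the outermost end holds the inner start. Zfp688 was at 2.86% around its start and 76.2%, 76.7% and 79.9% in the 3 tiles after it. Zfp61 was lower toward its inner start, with 75.3% in the tile from 1000 bp, 18.3% and 4.57% in the next 2 and 0.910% in the tile from 4000 bp. In Zfp235 the low body came from 43 cytosines at 2.06% (1.38% to 4.15%) in the tile from 1000 bp, while 5 cytosines in the tile from 5000 bp were at 70.4%. Zfp536, a long gene with 704 measured cytosines in its body, had intermediate means, at 42.2% in the body (39.4% to 43.5%) and 41.3% in the 3′ stretch (33.2% to 54.7%). The highest bodies were those of Zfp27, Zfp606, Zfp507, Zfp566 and Zfp260, from 90.9% to 87.3%.

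**Figure D4:**
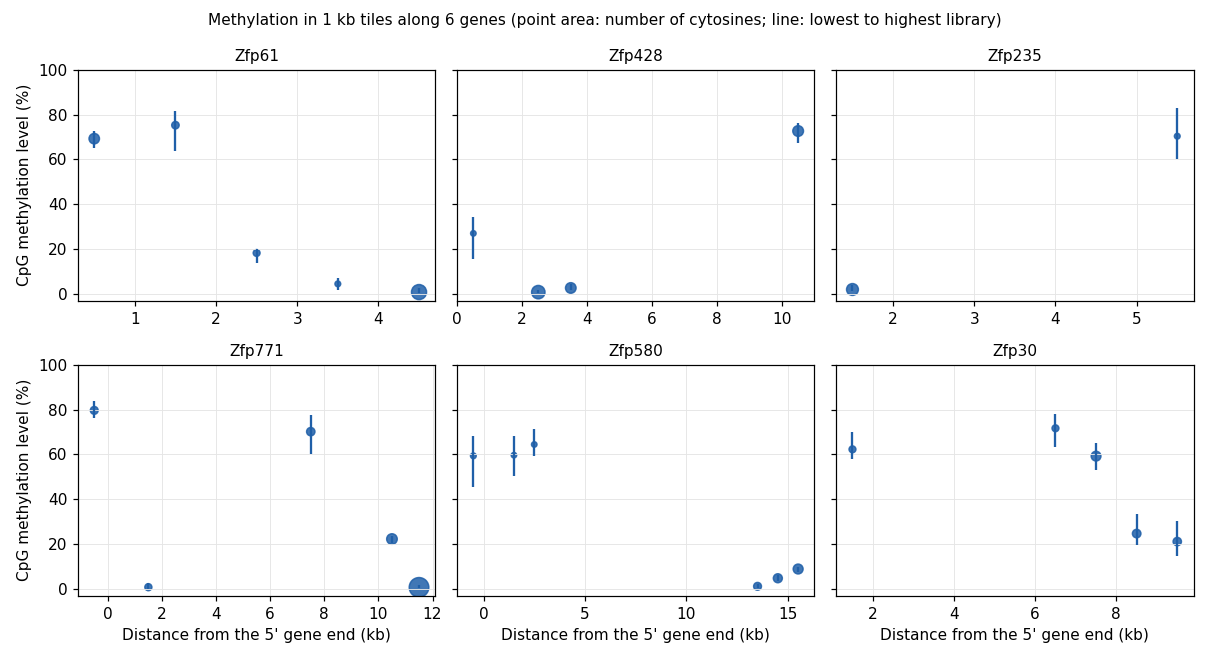
Methylation level (%) in 1 kb tiles against distance (kb) from the outermost 5′ gene end in 6 Zfp genes, with point area for the number of cytosines and lines from the lowest to the highest of 10 libraries. Zfp61, Zfp428, Zfp771 and Zfp580 dip at a start inside the gene (0.910%, 0.880%, 0.880% and 1.26%), and Zfp30 and Zfp771 are lower toward the 3′ end.

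Among the other genes without strand, Zfp524 was at 0.902% at its left end (57 cytosines) and 87.0% at its right end (3 cytosines). Of those 57 cytosines, 43 also lie within 1000 bp of another gene's end, and the 5′ end of Fiz1 is 488 bp away. Zfp114 was at 13.4% at its left end. Zfp865 was at 4.76% at its left end and 29.4% over 251 body cytosines, with 73.1% in the tile from 8000 bp and 34.5%, 19.9% and 22.9% in the next 3. Zfp446 was at 0.714% over 63 cytosines in the tile from 1000 bp and at 79.4% in its last 5000 bp on the right. Zfp574 was at 61.9% at its left end over 6 cytosines, 20 bp from an end of Grik5, and 72.2% in its body. Zfp575 was at 33.2% at its right end, 297 bp from the 5′ end of Ethe1.

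The Zfp genes fall into 17 runs with gaps under 1000000 bp, described here by the outermost gene ends. In the run of 15 genes from Zfp84 to Zfp146 (29768552 to 30169775), the median was 2.09% at 11 5′ ends, of which Zfp27 was highest at 40.6%, and 80.2% in 12 3′ stretches. In the run of 14 genes from Zfp180 to Zfp526 (24081877 to 25227876), it was 27.1% at 7 5′ ends and 72.2% in 6 3′ stretches. That run holds Zfp61, Zfp428, Zfp94, Zfp112 and Zfp108 beside Zfp180 and Zfp526, the only members under 5%. Of the 97 cytosines at the Zfp526 5′ end, 92 lie outside the gene, and the 5′ end of Dedd2 is 765 bp away. By the start sites, an alternative chosen after seeing the data, the median of the run was 8.84% over 8 genes. Zfp180, Zfp61, Zfp428 and Zfp93 were under 5% there, and Zfp526 was not measured. In the run of 10 genes from Zfp553 to Zfp646 (127233061 to 127885996), the median was 3.62% at 7 5′ ends and 69.5% in 9 3′ stretches. The 6 genes from Zfp628 to Zfp580 (4915181 to 5053723) had a 3′ stretch median of 28.7% over 3 genes. The differences between runs were not tested.

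The libraries did not keep a fixed order over the Zfp genes. At the 5′ end, each library was the highest for 2 to 9 of 56 genes and the lowest for 2 to 9. In bodies, library 2 was highest for 12 of 65 genes and libraries 7 and 9 were lowest for 11 each. In 3′ stretches, library 5 was highest for 9 of 52 genes and libraries 2 and 8 for 8 each, and libraries 7, 8 and 9 were lowest for 9 each. Over all genes the libraries also differed, with body medians highest in library 2 (60.1%) and lowest in library 1 (56.3%), next to library 9 (56.5%). The median range over the 10 libraries was 3.42 points at 5′ ends and 9.995 points in 3′ stretches, against 2.67 and 11.4 points in all genes.

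**Figure D5:**
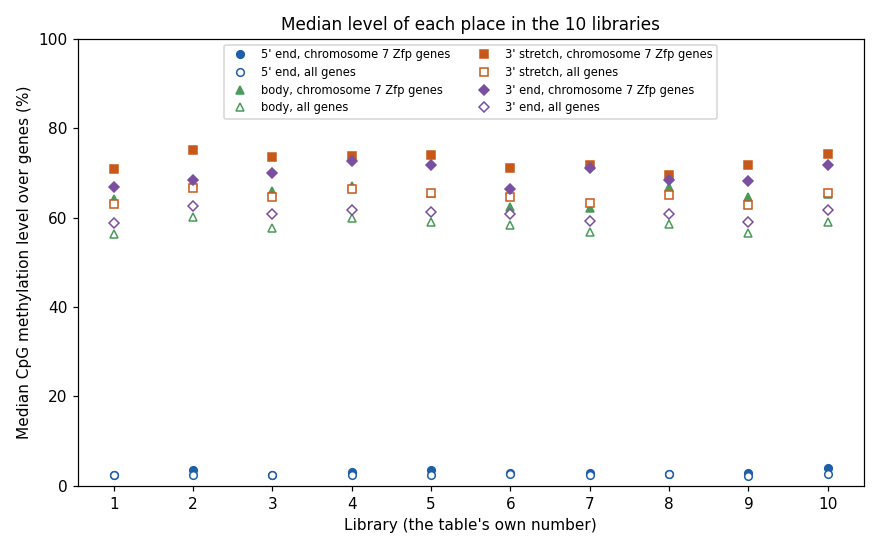
Median methylation level (%) over genes in each of the 10 numbered libraries, for chromosome 7 Zfp genes (filled) and all autosomal protein-coding genes (open) at the 4 places. The Zfp 5′ ends stay between 2.36% and 3.99% and the Zfp 3′ stretches between 69.5% and 75.1%; the library numbers carry no group.

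A list of genes around the repressor machinery of KRAB zinc finger proteins had the same shape. It also holds the zinc finger genes Zfp57 and Zfp445 and DNA methyltransferase genes, so it is not a list of recruited proteins only. Of 27 named, 23 had strand, and 18 of 19 measured 5′ ends were under 5%, with a median of 1.47%, against 64.9% of all genes under 5%. The co-repressor gene Trim28 was lowest at its 5′ end, and Setdb1, the H3K9 methyltransferase gene, was at 4.76% there (3.70% to 5.86%). Zfp445, a zinc finger gene that maintains imprints, was at 2.22% (0.433% to 6.56%). The exception was Cbx1, which encodes a heterochromatin protein, at 60.6% over 4 cytosines (51.7% to 66.3%). Their 3′ stretches had a median of 79.9% over 12 genes, from 61.0% in Ehmt2 to 85.5% in Ehmt1, both histone methyltransferase genes. The 5′ end lay wholly below the 3′ stretch in 9 of 9, against 86.4% of all genes, and below the body in 15 of 16, against 86.8% of all genes.

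Of 24 other zinc finger genes named, 16 were found on chromosome 7 with strand. Their median was 2.31% at 9 5′ ends and 71.1% in 8 3′ stretches, beside 3.10% and 71.8% in the Zfp genes. Of the 9 5′ ends 7 were under 5%, against 64.9% of all genes. The exceptions were Zik1 at 6.91% and Peg3, a paternally expressed imprinted gene, at 39.6% (22.3% to 53.6%). Zscan2 at 20.4%, Zbtb32 at 21.6% and Zbtb45 at 30.3% had the lowest 3′ stretches, each over 35 or more cytosines. The 5′ end lay wholly below the 3′ stretch in 7 of 7 and below the body in 9 of 9, beside the same 86.4% and 86.8% of all genes.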

How the data were processed

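RRBS of 10 mouse embryos was analysed. Per the submitters' processing notes, methylKit, Bismark and Trim Galore were used with mm10. Deduplication and mate overlap are not stated in the labels. Per the file headers, the authors' values are counts for each CpG cytosine: coverage, methylated and unmethylated reads in 10 libraries. It holds 2391795 cytosines, all with a coverage of at least 10 in every library, so thinly read cytosines are left out. All 30 count columns could be tied to no sample, so planned descriptions used the libraries as unassigned, with ranges and no test. The SD of the 10 library medians served only to judge whether an alternative setting moved a median.

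Gene spans, starts, strand and promoter sequences came from RefSeq tables on GRCm38.p6 (mm10). All 575 measured cytosines in the members' promoters lay on a matching base. Strand came from the promoter table. Exons and proteins were not used here, so the planned zinc finger exon was replaced by the last 5000 bp of the span, and fingers and KRAB domains were not counted. Levels are means over cytosines of methylated reads over coverage, and for pooled levels counts were summed over libraries beforehand. Calls required every library at the 5′ end to lie below every library at the other place, over all 16457 autosomal protein-coding genes with strand. Wilson intervals are at 95%. Python 3.11.15, numpy 2.4.6, pandas 2.3.3, statsmodels 0.14.6 and matplotlib 3.10.9 were used, and the calculations were tested on simulated data.

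The members and lists were chosen with earlier results of these data known. Genes named were the 5 lowest and 5 highest at each place and the 5 widest library ranges at each end. Also named were the 8 largest and 5 smallest signed differences of 3′ stretch minus 5′ end. The smallest include Zfp771 and Zfp580, whose 5′ end was the higher. Always named were Zfp36, Zfp568, Zfp110, Zfp260, Zfp146, Zfp180, Zfp30, Zfp473, Zfp536, Zfp592, Zfp646 and Zfp668. Other genes named were chosen after their values were seen. Alternatives were other coverage minimums, windows, cytosine minimums, read weighting, single strands and leaving out each library.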

Additional observations from a re-analysis of the deposited data

How the results depend on the processing

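By RefSeq start sites, chosen after seeing the data, the 4 genes Zfp771, Zfp580, Zfp61 and Zfp428 changed direction. Zfp771 turned from 68.1 to -10.7 points and Zfp580 from 53.1 to -6.88 points (5′ end minus 3′ stretch). Zfp61 turned from 57.7 to -47.4 points and Zfp428 from 24.7 to -25.3 points (5′ end minus body). The body by start sites still holds the span before the start, where the body tiles of Zfp61 lie. The 5′ median turned from above to below that of all genes, and the share of 5′ ends below 3′ ends from below to above it. With a coverage of at least 20 in every library the median was 1.62% at the 5′ end and 67.1% in the body, and 6 of 8 genes had a 5′ end wholly below the 3′ end. With windows of 500 bp these were 1.31%, 57.8% and 8 of 9, and with windows of 2000 bp 5.11%, 68.4% and 27 of 33. Read weighting gave 2.51% at the 5′ end and the plus strand alone 2.35%. RefSeq start sites gave 2.36% at the 5′ end and 69.7% in the body. The windows and start sites change by construction which cytosines count, and the other causes were not tested. The medians at the 3′ end and in the 3′ stretch and the counts against the 3′ stretch and the body moved in none of 18 or 19 settings by more than 1 SD of the 10 library medians, or by 1.5 times for the counts.

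Without each library in turn, the median was 2.89% to 3.22% at the 5′ end, 69.7% to 70.4% at the 3′ end, 63.5% to 65.0% in the body and 71.6% to 72.3% in the 3′ stretch, and the counts stayed at 14, 36 and 33. No paired analysis was possible because the count columns carry no sample labels. Places with 3 to 5 cytosines rest on few reads, and only 56 of the 82 genes with strand were measured at the 5′ end.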
